A study of Mus musculus with 6 samples.

Results

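Slamf1, Cd48, Ly9, Kit and Flt3 encode surface receptors used to sort mouse blood stem cells, or close relatives of those receptors. All probe sets (groups of oligonucleotides on the array that together read 1 transcript) whose annotated gene was one of these 5 were taken. They were 8 of 45037 probe sets tested, with 3 for Slamf1, 2 for Kit and 1 each for Cd48, Ly9 and Flt3, and the 5 genes were 5 of 18193 with a probe set of their own. Each was read in RNA of hematopoietic stem cells (HSCs) sorted from adult mice, on 3 arrays labelled PU.1 ki/ki and 3 arrays labelled wild type. PU.1 ki/ki mice are homozygous for a knock-in at the gene of PU.1, an ETS transcription factor of the myeloid and lymphoid lineages encoded by Spi1. The series title speaks of PU.1 autoregulation and of HSC proliferation. The labels used here do not give the altered site, the strain, the sex, or whether an array holds the cells of 1 mouse or of a pool, so a p-value here speaks of the spread among these samples only, part of which may be technical. All 6 samples passed the same sort, for cells without lineage markers that carried Sca1, cKit and CD150 and lacked CD48.

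The sort acts on proteins at the cell surface, whereas the arrays read transcripts. Slamf1 encodes CD150, Cd48 encodes CD48 and Kit encodes cKit, so the protein products of 3 of the 5 genes had been used to choose the cells in both groups alike. Ly9 (CD229) and Flt3 (CD135) were not in the labelled gate, and are used in other schemes to divide stem cells from multipotent progenitors. CD150, CD48 and CD229 belong to the SLAM family of immunoglobulin-type receptors. CD150 and CD229 bind a copy of themselves on another cell and signal through tyrosine motifs that recruit SAP-type adaptors, while CD48 is held in the membrane by a lipid anchor and binds CD244 and CD2. Kit and Flt3 are class III receptor tyrosine kinases. Kit is activated by stem cell factor, encoded by Kitl, and is needed for the upkeep of HSCs. Flt3 is activated by Flt3 ligand and marks progenitors that have gained lymphoid potential. In the RefSeq gene table the SLAM receptors are neighbours on mouse chromosome 1, where Cd244a, Ly9, Slamf7 and Cd48 are followed, after the entry Tma7-ps, by Slamf1, Cd84 and Slamf6. On chromosome 5 Kit lies between Pdgfra and Kdr, which encode other receptor tyrosine kinases, and Flt3 lies next to Pan3, which is followed by Flt1.

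PU.1 and other ETS factors bind purine-rich DNA around the core GGAA, so the 250 bases before the start of each member are shown, from RefSeq on the build GRCm38.p6. That table holds 4 of the 5, and Ly9 is named only. They lie at chr1:171766882-171767131 on the plus strand for Slamf1, chr1:171681742-171681991 on the plus strand for Cd48, chr5:75574737-75574986 on the plus strand for Kit (1 of 2 entries, which start 4 bases apart) and chr5:147400490-147400739 on the minus strand for Flt3. Capitals mark GGAA or its reverse complement TTCC.
Slamf1: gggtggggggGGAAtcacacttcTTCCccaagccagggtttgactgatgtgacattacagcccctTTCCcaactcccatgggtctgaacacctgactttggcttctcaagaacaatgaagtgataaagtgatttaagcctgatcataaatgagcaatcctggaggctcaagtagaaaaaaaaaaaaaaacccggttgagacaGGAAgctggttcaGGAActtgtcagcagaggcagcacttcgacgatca
Cd48: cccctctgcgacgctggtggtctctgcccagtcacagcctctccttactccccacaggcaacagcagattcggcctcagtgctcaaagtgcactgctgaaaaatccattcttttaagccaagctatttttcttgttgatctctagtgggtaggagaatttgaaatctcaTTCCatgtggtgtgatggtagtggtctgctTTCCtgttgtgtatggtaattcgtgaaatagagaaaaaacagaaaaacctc
Kit: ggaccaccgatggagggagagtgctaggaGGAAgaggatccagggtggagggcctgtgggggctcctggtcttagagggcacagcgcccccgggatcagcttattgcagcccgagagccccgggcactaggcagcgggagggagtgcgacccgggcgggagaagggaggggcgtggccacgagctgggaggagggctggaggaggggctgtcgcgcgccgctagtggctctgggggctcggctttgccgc
Flt3: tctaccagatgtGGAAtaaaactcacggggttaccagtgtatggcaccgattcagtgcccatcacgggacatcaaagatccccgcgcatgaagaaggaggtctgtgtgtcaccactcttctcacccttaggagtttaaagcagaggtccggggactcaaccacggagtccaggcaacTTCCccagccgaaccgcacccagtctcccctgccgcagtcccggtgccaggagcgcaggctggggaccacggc
The core occurred 5 times before Slamf1, 2 times before Cd48, 2 times before Flt3 and 1 time before Kit, counting both strands. Of 32851 promoters of the same length 93.4% held it at least 1 time, 76.8% at least 2 times and 18.0% at least 5 times. The longer form GAGGAA, which contains the core, was found before Kit and in 23.3% of all promoters. It was not among these letters for Slamf1, Cd48 or Flt3. These are matches of letters and not measured binding sites.

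The arrays were not equally alike. Wild-type replicates 2 and 3 stood apart. On them 11.5% and 11.3% of bright probe sets (median of the other 5 arrays at least 512) lay at least 4-fold below that median, whereas wild-type replicate 1 had 1.12% and PU.1 ki/ki arrays had 0.119 to 0.219% of them. The Gapdh control read at the 3' end over that at the 5' end was 6.11 and 6.68 there, and it lay between 2.98 and 4.75 elsewhere. Xist, a long RNA that coats the inactive X chromosome, was at 16 on wild-type replicate 2 and between 2322 and 6955 elsewhere, on the brightest of its 3 probe sets. Spi1 read 181 ± 27.2 (SD, n = 3) in PU.1 ki/ki HSCs against 184 ± 22.6 in the wild type, which does not check the labels because its probe set's place relative to the knock-in is not known. The mean of each of 13 long-term stem cell genes, read on its brightest probe set, lay above the median of all probe sets, dimmer ones included. The share of all genes that do so was not counted. Between the groups 10 of the 13 differed positively (median 0.83, and 0.68 or 0.72 after the arrays were rescaled) and 0 passed. Vwf (1.38) and Tek (1.03) did so without overlap, and over 1 probe set per gene 12.8% of all genes show none. Ly6a, which encodes Sca1, was not analysed here. Values are array intensities, whose minimum in the table was 10, and a difference is the mean of log2(intensity + 1) in PU.1 ki/ki minus that in wild type. In bulk RNA, fewer cells of a type and less RNA per cell cannot be told apart.

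None of the 5 receptor genes set HSCs of PU.1 ki/ki mice apart from those of wild-type mice beyond the spread between arrays. In limma's moderated test, 0 of the 8 probe sets had an adjusted p under 0.05, as for 0 of all 45037 (0%), and among members the lowest adjusted p was 0.6549. Before adjustment 0 of the 8 had a p under 0.05, against 8.28% of all probe sets. The groups overlapped in all 8, whereas over all probe sets 12.1% showed no overlap. Of the 8 differences 6 were positive and 2 negative (4 positive after quantile normalization and 5 after median centring), with a median of 0.36 where that of all probe sets was 0.00. In size the median was 0.39 for the members and 0.35 for all. The difference of 1 member probe set, that of Slamf1, was over 1, that is 12.5% of them against 11.5% of all. Two-sided exact permutation tests gave p = 0.2 to 1 for single member probe sets, and with 3 arrays in each group no p below 0.1 is possible.

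**Figure D1:**
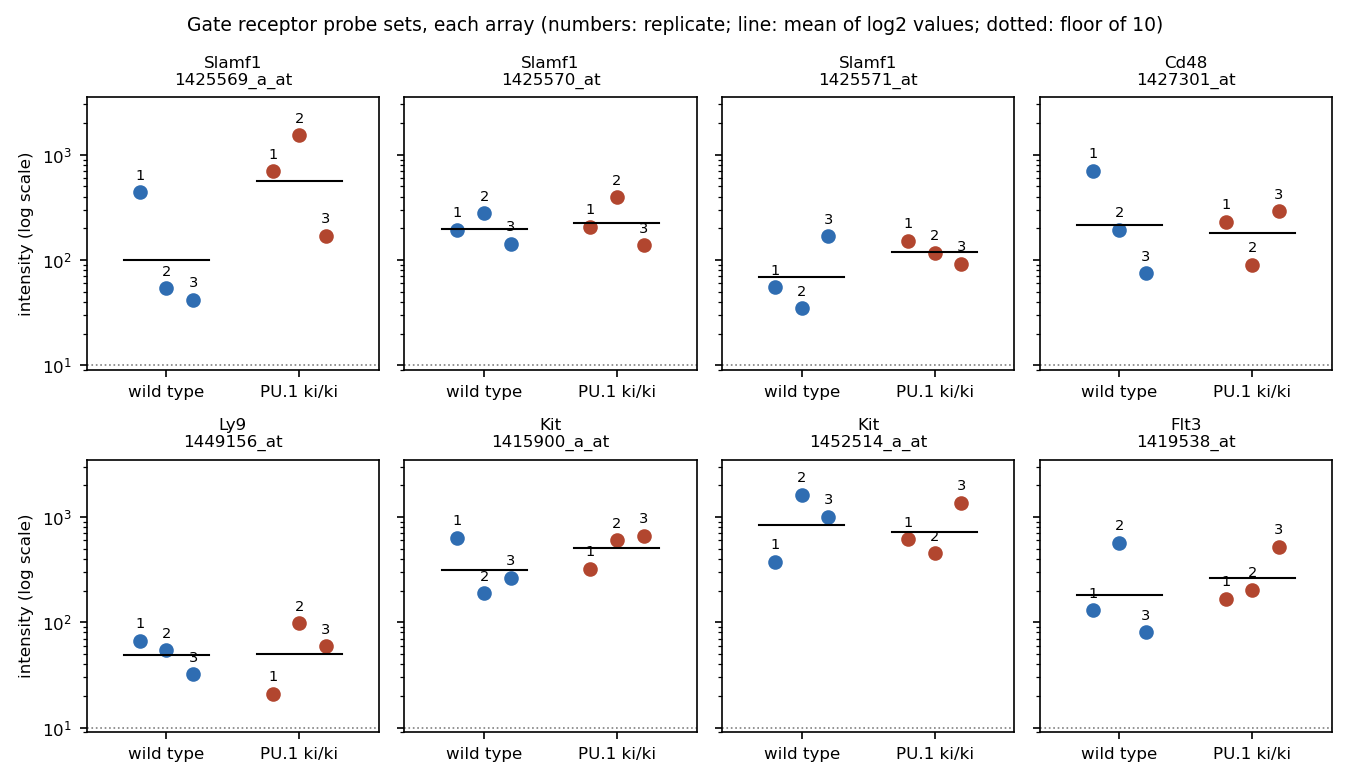
Intensity (log scale) of the 8 probe sets on each array, with wild type in blue and PU.1 ki/ki in red, replicate numbers beside the points, a line at the mean of the log2 values and a dotted line at the table's minimum of 10. In every panel the 2 groups overlap, and on 1425569_a_at of Slamf1 wild-type replicates 2 and 3 lie below all other arrays.

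Slamf1, the receptor that defines the CD150-positive gate, had the largest difference of the 5 genes, and its 3 probe sets did not read alike. The probe set 1425569_a_at, whose suffix marks probes shared by several transcripts of the gene, read 696, 1525 and 170 on PU.1 ki/ki replicates 1, 2 and 3. On wild-type replicates 1, 2 and 3 it read 440, 54 and 42. The groups overlapped, since wild-type replicate 1 lay above PU.1 ki/ki replicate 3. The low wild-type readings were on replicates 2 and 3, the arrays that stood apart above, and their cause was not tested. The difference was 2.48 ± 1.26 (SE, 95% interval -0.73 to 5.69, limma adjusted p = 0.6549), a size reached by 0.335% of all probe sets. The highest reading was 36.3-fold the lowest. Without wild-type replicates 2 and 3 the difference was 0.36, and with single arrays left out it ranged from 1.77 to 3.54. Without wild-type replicate 1 it was 3.54, at an unadjusted p of 0.0269 and an adjusted p of 0.2555 (limma).

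The second Slamf1 probe set, 1425570_at, read 208, 396 and 138 on PU.1 ki/ki replicates 1 to 3 and 194, 278 and 143 on the wild-type arrays. Here the wild-type values lay inside the wider range of PU.1 ki/ki, and wild-type replicate 2 was the second highest of the 6 arrays. The difference was 0.19 ± 0.47 (95% interval -1.02 to 1.40, limma adjusted p = 0.9321). The third, 1425571_at, read 153, 117 and 92 in PU.1 ki/ki and 55, 35 and 168 in wild type. On this probe set wild-type replicate 3 was the highest of all arrays and replicates 1 and 2 the lowest. The difference was 0.77 ± 0.63 (95% interval -0.83 to 2.37, limma adjusted p = 0.7449). Wild-type replicate 3 was thus the lowest array on 1425569_a_at and the highest on 1425571_at. All 3 differences of Slamf1 were positive, by 0.19 to 2.48, but the sign of 1425570_at turned after a further quantile normalization (-0.01), without PU.1 ki/ki replicate 2 (-0.22) and without wild-type replicate 3 (-0.05).

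Cd48, whose protein was used to exclude cells, was read by the probe set 1427301_at alone. PU.1 ki/ki replicates 1, 2 and 3 read 230, 90 and 290, and wild-type replicates 704, 193 and 75. The highest and the lowest of the 6 arrays were both wild type, 9.39-fold apart, and the PU.1 ki/ki arrays lay between them. The group means were 203 ± 103 and 324 ± 334, and the difference was -0.25 ± 0.95 (SE, 95% interval -2.68 to 2.17, limma adjusted p = 0.9607). It was 0.59 without wild-type replicate 1, 0.25 without PU.1 ki/ki replicate 2 and -1.95 without wild-type replicates 2 and 3. The sign thus depended on the arrays used, of either group. Wild-type replicate 1, the highest for Cd48, also had the highest sum of 9 granulocyte markers, 29054. Wild-type replicates 2 and 3 had 23922 and 20841, and PU.1 ki/ki replicates 1, 2 and 3 had 15787, 22016 and 15389. The sums followed the order of Cd48 among the wild-type arrays and the reverse order among those of PU.1 ki/ki. The part of other cells in the Cd48 readings was not tested.

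Ly9 lies between Cd244a and Slamf7 in the SLAM locus. Its probe set 1449156_at read 21, 98 and 59 on PU.1 ki/ki replicates 1 to 3 and 67, 54 and 32 on the wild-type arrays. Both the highest and the lowest array were PU.1 ki/ki, and the wild-type values fell inside their range. The difference was 0.03 ± 0.64 (95% interval -1.60 to 1.66, limma adjusted p = 1), and its sign turned with either rescaling of the arrays (-0.09 and -0.08).

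Kit, the receptor of stem cell factor and the cKit of the gate, was read by a pair of probe sets that put the arrays in different orders. Both carry the suffix for probes shared by several transcripts. On 1415900_a_at PU.1 ki/ki replicates 1, 2 and 3 read 322, 598 and 662, and wild-type replicates 634, 189 and 264. On that probe set wild-type replicates 2 and 3 were the lowest arrays and wild-type replicate 1 was second to PU.1 ki/ki replicate 3. The difference was 0.67 ± 0.55 (SE, 95% interval -0.75 to 2.08, limma adjusted p = 0.7487). On 1452514_a_at PU.1 ki/ki replicates read 617, 452 and 1368, and wild-type replicates 374, 1622 and 1001. Here wild-type replicate 1 was the lowest of the 6 arrays, and replicates 2 and 3 were the highest and the third highest. The difference was -0.22 ± 0.70 (95% interval -2.02 to 1.57, limma adjusted p = 0.9497). Without wild-type replicates 2 and 3 both signs turned, to -0.33 and 0.95. Without wild-type replicate 1 the first probe set differed by 1.17, at an unadjusted p of 0.0455 and an adjusted p of 0.3023 (limma).

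Over the 6 arrays the log2 intensities of the Kit probe sets had a Pearson r of -0.55 (exact permutation p = 0.228) and a Spearman rho of -0.43 (exact permutation p = 0.419). Of the 3 pairs of Slamf1 probe sets, 1425569_a_at and 1425570_at had r = 0.52 (exact permutation p = 0.297) and rho = 0.54 (exact permutation p = 0.297). For 1425569_a_at and 1425571_at r was 0.24 (exact permutation p = 0.633) and rho 0.03 (exact permutation p = 1). For 1425570_at and 1425571_at r was -0.25 (exact permutation p = 0.622) and rho -0.20 (exact permutation p = 0.714). Adjusted over the 4 pairs, the permutation p of r was 0.594 to 0.633 and that of rho 0.839 to 1. Without the 2 arrays farthest from the median of the first-named probe set, r was 0.09 for Kit and, in the order above, -0.35, 0.75 and -0.77 for Slamf1. No pair of probe sets of 1 gene was therefore related across arrays beyond what the permutation of 6 arrays gives.

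Flt3, the receptor that distinguishes lymphoid-primed progenitors from long-term HSCs, was read by 1419538_at. It read 168, 203 and 524 on PU.1 ki/ki replicates 1, 2 and 3 and 130, 566 and 80 on the wild-type arrays. The high readings came from 1 array of each group, PU.1 ki/ki replicate 3 and wild-type replicate 2, and the wild-type values enclosed those of PU.1 ki/ki. The difference was 0.53 ± 0.88 (SE, 95% interval -1.72 to 2.78, limma adjusted p = 0.8759). With single arrays left out it ranged from -0.05, without wild-type replicate 3, to 1.35.

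**Figure D2:**
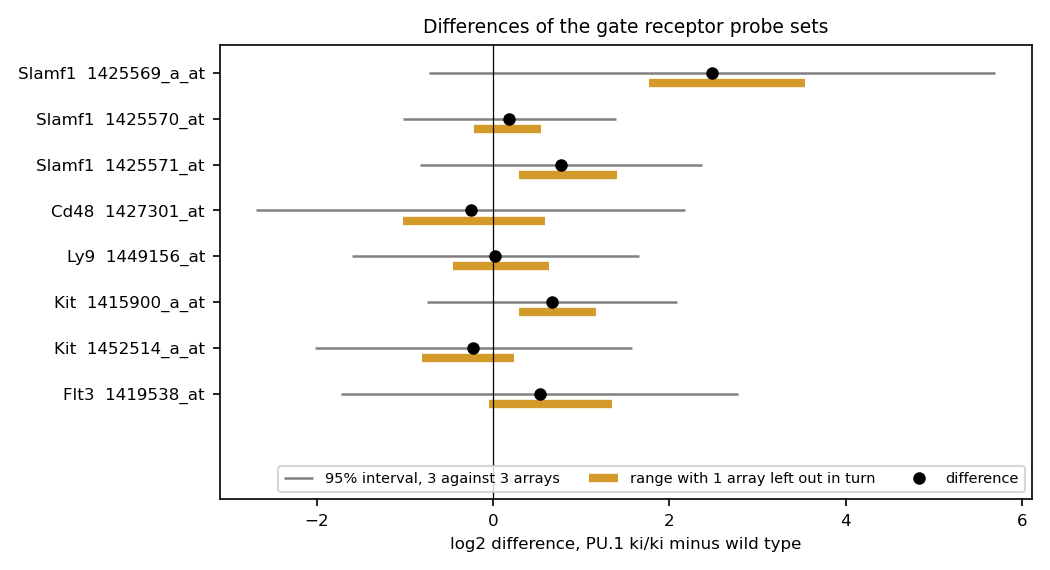
Differences of the 8 probe sets (log2, PU.1 ki/ki minus wild type) as points, with the 95% interval of the moderated fit in grey and the range of the difference with 1 array left out at a time in ochre. All 8 intervals include 0, and the widest, of Slamf1 1425569_a_at, runs from -0.73 to 5.69.

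The genes whose intensities followed each receptor most closely over the 6 arrays were taken from 19543 probe sets with a mean above the median. With so few arrays a high Pearson r is common. For each receptor 18 to 56 probe sets reached an r over 0.95 with its brightest probe set, that probe set itself included. For Slamf1 (1425569_a_at) these were Cttnbp2nl, Capn15 and Cep128, with r of 0.992, 0.991 and 0.986. Capn15 read 108, 178 and 34 on PU.1 ki/ki replicates 1 to 3 and 49, 11 and 10 on the wild-type arrays, so it was also low on wild-type replicates 2 and 3. For Cd48 they were Mthfsd (0.990), Fgf3 (0.986) and Poldip3 (0.986). Each of them, like Cd48, read highest on wild-type replicate 1. For Ly9 they were Eif4g2 (0.983), Itgb1 (0.979) and Actr3 (0.968). Itgb1 encodes the integrin beta-1 chain, and these genes too read highest on PU.1 ki/ki replicate 2 and lowest on replicate 1. For Kit (1452514_a_at) they were Tsn (0.999), Tgoln1 (0.984) and Arhgap23 (0.982). For Flt3 they were Csf3r (0.993), Trp53bp2 (0.986) and Cep97 (0.984). Csf3r, the receptor of the granulocyte growth factor G-CSF, read 104, 114 and 330 in PU.1 ki/ki and 95, 358 and 57 in wild type. Like Flt3 it was highest on wild-type replicate 2 and PU.1 ki/ki replicate 3.

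Of the other 6 SLAM family receptors none passed the adjusted threshold. On the brightest probe set of each gene 3 were positive and 3 negative (median 0.06, slightly below 0 after either rescaling), and 5 had a mean below the median of all probe sets. Slamf7 was the only one whose groups did not overlap, with 24, 21 and 21 in PU.1 ki/ki and 26, 33 and 39 in wild type. All of these lay close to the minimum of 10, so the difference of -0.53 (limma adjusted p = 0.5798) is of uncertain size. With single arrays left out it ranged from -0.68 to -0.40, and it was -0.23 without wild-type replicates 2 and 3. Over 1 probe set per gene, 12.8% of all genes showed no overlap. Cd84, which binds a copy of itself like CD150, read 225 ± 87.1 against 155 ± 21.6 (0.47, adjusted p = 0.7001), and its other probe set differed by -0.23. Cd244a, the receptor that binds CD48, read 45, 16 and 28 in PU.1 ki/ki and 104, 25 and 30 in wild type (-0.63, adjusted p = 0.7985). As for Cd48, its highest reading was on wild-type replicate 1, without which the difference was 0.00, and it was -1.89 without wild-type replicates 2 and 3. Slamf6 read 20.3 ± 5.13 against 18.0 ± 1.00.

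Of 8 genes listed as SLAM ligand and adaptors 6 were measured, with 3 positive and 3 negative differences (median 0.01, and -0.07 or -0.10 after rescaling) and 0 passing. Fyn, the Src-family kinase that works with SAP at CD150, read 451, 527 and 541 on PU.1 ki/ki replicates 1 to 3 and 289, 216 and 221 on the wild-type arrays. The groups did not overlap, and the difference of 1.07 ± 0.17 (SE, limma adjusted p = 0.4305) was 0.80 without wild-type replicates 2 and 3. Its other probe set differed by 0.23. Sh2d1a, which encodes SAP itself, was at 10 to 14 on every array, at or close to the minimum. Ptpn11, encoding the phosphatase SHP-2, read 541, 1143 and 753 against 946, 441 and 107 (1.12, adjusted p = 0.7385), and -0.29 without wild-type replicates 2 and 3. Cd2, a partner of CD48, read 46.7 ± 1.53 against 59.0 ± 9.54 (-0.32, adjusted p = 0.6571), and Ptpn6, of SHP-1, differed by -0.11.

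Of the ligands and the other class III receptor tyrosine kinases 4 of 5 were measured, 1 positive and 3 negative (median -0.54), and in each the groups overlapped. Csf1r, the receptor of M-CSF, read 534, 209 and 648 in PU.1 ki/ki and 88, 465 and 107 in wild type (1.34, limma adjusted p = 0.6844, and 2.23 without wild-type replicates 2 and 3). Pdgfrb read 60, 93 and 116 against 93, 427 and 352 (-1.47, adjusted p = 0.6365), and the difference was -0.10 without wild-type replicates 2 and 3, the arrays that read high. Kitl, made mainly by niche cells, read 19.0 ± 5.29 against 33.7 ± 12.7, near the minimum, and differed by -0.03 without those arrays. Pdgfra, the neighbour of Kit, read 23.7 ± 3.79 against 31.3 ± 12.1.

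Of 25 signal transducers of Kit and Flt3 20 were measured, with 12 positive and 8 negative differences (median 0.33, against 0.01 over all genes) and 0 passing. After either rescaling 11 were positive, with a median of 0.19 or 0.22. In 4 the groups did not overlap, all higher in PU.1 ki/ki, where 12.8% of all genes show no overlap and 6.44% are higher without it. These 4 are named after their values were seen. Sos1, the exchange factor that activates Ras behind Kit, read 433, 416 and 464 in PU.1 ki/ki and 246, 248 and 242 in wild type. Both groups were tight, and the difference of 0.83 ± 0.11 (SE, limma adjusted p = 0.4004) kept its size without wild-type replicates 2 and 3 (0.83). Of its 4 other probe sets 2 had the opposite sign, from -0.64 to 1.12. Pik3ca, a catalytic subunit of PI3-kinase, read 595, 872 and 836 against 437, 179 and 42. Its lowest readings were on wild-type replicates 2 and 3. The difference was 2.34 (adjusted p = 0.5983), and 0.79 without those arrays. Its 5 other probe sets differed the same way, by 0.33 to 0.69. Grb2, the adaptor that links Kit to Sos1, read 850, 883 and 760 against 692, 423 and 354 (0.82, adjusted p = 0.5758). The difference was 0.26 without wild-type replicates 2 and 3, and that of its other probe set was -0.48. Pik3r1, the regulatory subunit of PI3-kinase, read 2013 ± 123 against 1424 ± 327 (0.53, adjusted p = 0.6121, and 0.94 without wild-type replicates 2 and 3). Its 3 other probe sets differed by -0.22, 1.84 and 0.11. Sos2 differed by 1.08 with overlap, and by -0.38 without wild-type replicates 2 and 3. At the other end Src read 41.0 ± 7.55 against 95.7 ± 84.7 (-0.87), with 193 on wild-type replicate 3, and the difference was -0.19 without that array. Crk read 1103 ± 330 against 1746 ± 622 (-0.64), and differed by -0.07 without wild-type replicates 2 and 3. Its 4 other probe sets differed by 0.65, -0.59, 0.12 and 0.59.

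All 13 negative regulators of Kit and Flt3 signalling were measured, of which 4 were positive and 9 negative (median -0.19, and -0.40 or -0.30 after rescaling), and 0 passed. The groups did not overlap in 4, of which PU.1 ki/ki was higher in 1 and lower in 3, where 6.44% and 6.36% of all genes lay higher and lower without overlap. Cbl, the ubiquitin ligase that sends active Kit to degradation, read 393, 441 and 824 in PU.1 ki/ki and 280, 253 and 254 in wild type (0.99 ± 0.31, limma adjusted p = 0.5513). Its 2 other probe sets differed the same way, by 1.15 and 0.83. Ptpru, a receptor-type phosphatase, read 50, 52 and 54 in PU.1 ki/ki and 140, 191 and 231 in wild type. The gap between the groups was wide next to their spread (-1.80 ± 0.22, adjusted p = 0.4004, -1.41 without wild-type replicates 2 and 3), and its other probe set differed by 0.47. Dok1, an adaptor that dampens Ras signalling, read 214, 323 and 267 against 504, 389 and 741 (-0.99, adjusted p = 0.5424). Socs1, a suppressor of cytokine signalling, read 39.0 ± 3.61 against 63.0 ± 12.8 (-0.66, adjusted p = 0.5221, and -0.41 without wild-type replicates 2 and 3). Socs2, of the same family, had the highest difference of the list on its brightest probe set, 1.34 with overlap. Cblb, related to Cbl, read 145 ± 33.6 against 293 ± 151 (-0.86, and 0.25 without wild-type replicates 2 and 3), and both of its other probe sets had the opposite sign.

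Over these 5 lists together 10 of 47 different genes, or 21.3%, showed no overlap between the groups, against 12.8% of all genes, and 9 (19.1%) had an unadjusted p under 0.05, against 8.66%. None of the 47 passed adjustment over all probe sets in limma, and the median difference was -0.01. The lists were chosen with earlier results of these data known, so the 21.3% and 19.1% are descriptions and not a test. Against wild-type replicate 1 alone, a setting chosen after seeing the data, 25 of the 47 (53.2%) lay wholly to one side, where 54.0% of all genes did. A lone array lies outside 3 others in many genes whatever the groups are, so these shares do not bear on the 21.3%.

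**Figure D3:**
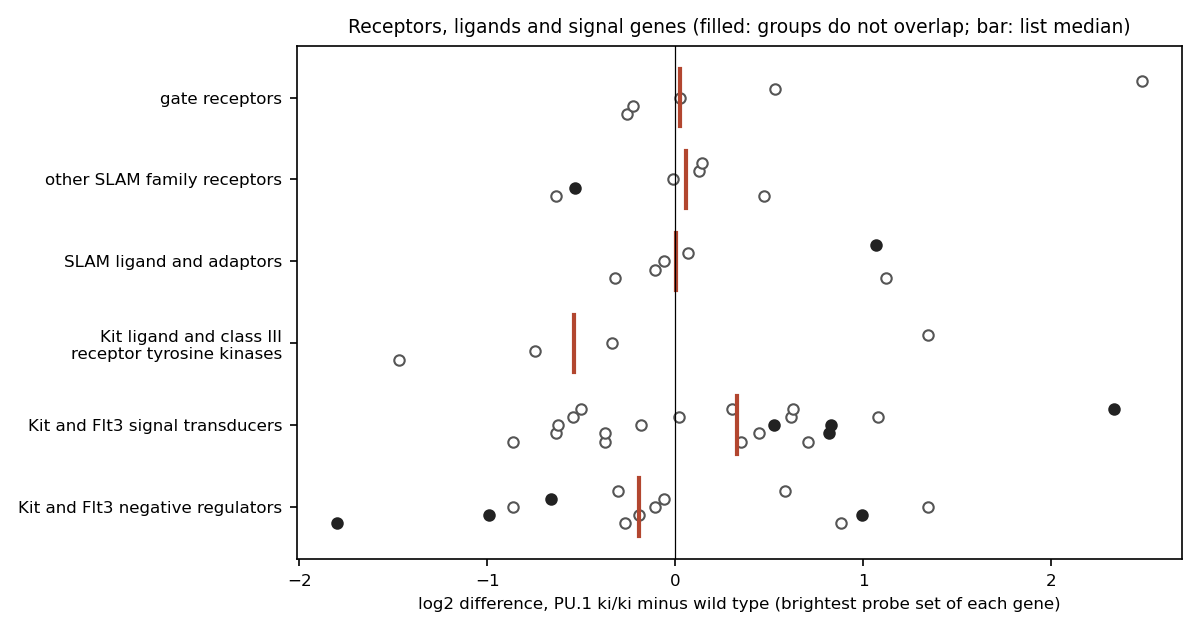
Log2 difference (PU.1 ki/ki minus wild type) of the brightest probe set of each gene, by list, with filled points where the 3 values of each group do not overlap and a bar at the median of the list. Differences lie on both sides of 0 in every list, and the filled points are 10 of the 47 genes outside the gate receptors.

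Markers of other cells that carry these receptors were read on the same arrays. Kit is high on mast cells, but of 8 mast cell markers 7 had a mean below the median of all probe sets. They summed to 206 to 223 in PU.1 ki/ki and 227 to 396 in wild type, and the tryptase Tpsab1 was at 10 on all 3 wild-type arrays and at 10 to 15 in PU.1 ki/ki. CD150 is also found on megakaryocytes, and 7 of 8 listed markers were measured. They summed to 1077 to 2521 in PU.1 ki/ki and 720 to 1647 in wild type. Pf4 was the brightest of them except on wild-type replicate 1, where Itga2b read 256 and Pf4 193. Of 9 granulocyte markers all differed negatively (median -0.40), 2 of them without overlap where 6.36% of all genes are lower without it, with sums of 15389 to 22016 against 20841 to 29054. These include Mpo at 3027 to 6717 and S100a9 at 3821 to 6539. Macrophage markers were positive in 7 of 8 (6 after median centring), with sums of 478 to 1111 against 215 to 401. Of these 2, C1qb and C1qc, did not overlap, where 6.44% of all genes are higher without overlap. On its brightest probe set C1qb was at 10 on all wild-type arrays and differed by 3.96. Its 2 other probe sets differed by 0.15 and 1.30. Of the lymphoid markers B cell genes summed to 391 to 472 against 366 to 895 and T and NK cell genes to 366 to 472 against 492 to 749. Genes of dendritic cells, some of which carry Flt3, summed to 244 to 279 against 294 to 317. Of the 5 measured 2 were positive and 3 negative. Only Ccr9 did not overlap, with 74, 50 and 60 in PU.1 ki/ki and 113, 97 and 146 in wild type. Of its 4 other probe sets 2 had the opposite sign. Erythroid markers summed to 458 to 1006 against 702 to 1954, mostly Car1 and Ermap except on PU.1 ki/ki replicate 1. Klf1, a transcription factor of red cell precursors, went the other way without overlap, with 118, 123 and 159 in PU.1 ki/ki and 42, 21 and 11 in wild type (2.57, limma adjusted p = 0.4634), while Hba-a1 was lower without overlap. In none of these lists did a gene pass over all probe sets, and their part in the receptor values was not tested.

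**Figure D4:**
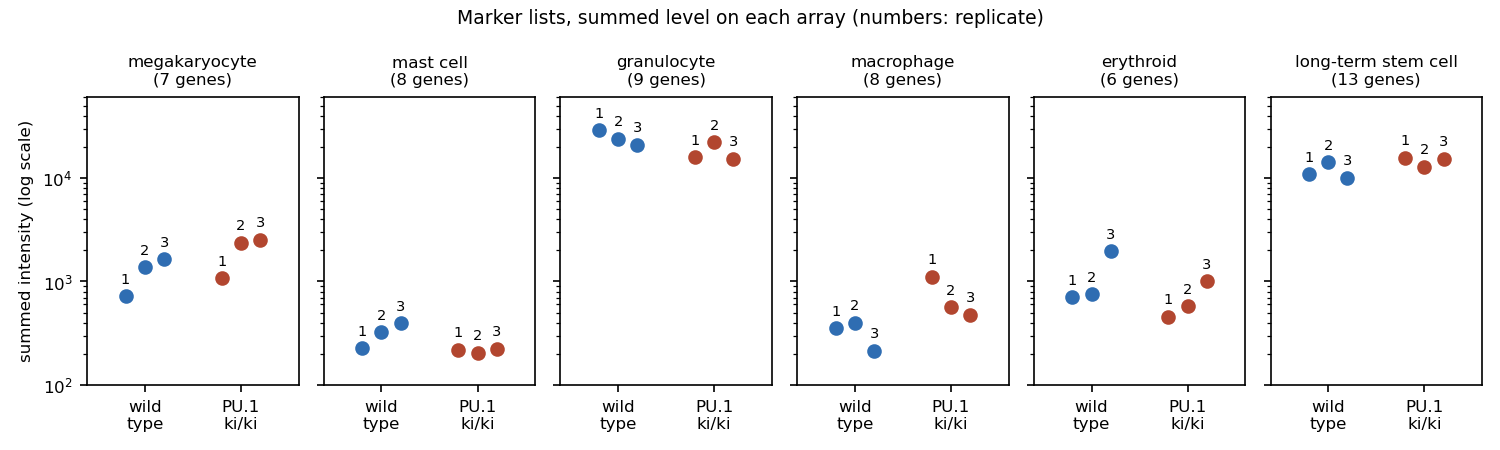
Summed intensity (log scale) of 6 marker lists on each array, with wild type in blue, PU.1 ki/ki in red and replicate numbers beside the points. Mast cell markers sum to 206 to 396, granulocyte markers to 15389 to 29054, and the sums of the stem cell list lie between 10062 and 15731.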

How the data were processed

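Deposited intensities, 1 per probe set and array, were used. Per the submitters' processing notes RMA produced them, in a version not stated there. RMA normally returns log2 values, but these were whole numbers on a linear scale with a minimum of 10, and that conversion and floor are not described. Array medians were 41 to 46. The deposited text calling the samples embryos conflicts with every other label and was set aside. Of 45101 entries 64 control probe sets were left out. Names came from the platform annotation, with 1 symbol for 34945 probe sets, several for 932 (unnamed) and none for 9160. Other genes were read on their probe set with the highest mean. Of the 5 members 4 matched the RefSeq promoter table.

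Log2(intensity + 1) was fitted to genotype on all 6 arrays with limma 3.58.1 (lmFit, eBayes, R 4.3.3), and p-values were adjusted over the whole table by Benjamini-Hochberg, with calls at 0.05; steps were tested on simulated data. The pseudocount understates differences of dim probe sets. For arrays, their number limits the precision. The members and gene lists were chosen with earlier results of these data known. Named were all member probe sets, the 2 highest and 2 lowest of a list in part, and the 3 genes most like each member. Other list genes, such as Socs1, Cblb, Ptpn6 and Sh2d1a, were chosen after their values were seen. Alternatives were quantile normalization, median centring, a pseudocount of 16, no dim probe sets, another variance prior, array weights, the replicate block and arrays left out. The labels do not say whether equal replicate numbers pair the samples. Between arrays of equal number, deviations from group means correlated at -0.016, 0.021 and -0.017, which cannot exclude a shared litter or day. Figures used matplotlib 3.10.9.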

Additional observations from a re-analysis of the deposited data

How the results depend on the processing

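Under all 14 alternatives 0 of the 8 member probe sets and 0 probe sets in the whole table passed in limma, and the lowest adjusted p of a member was 0.2555. At an unadjusted p under 0.05 the whole table held 1704 (of 22542, without dim probe sets) to 7183 (without wild-type replicate 1), against 3731. Of the members there were 1 without dim probe sets, 2 without wild-type replicate 1 and 1 without wild-type replicate 3, and 0 under the others. With the replicate block, 0 passed and 3369 had an unadjusted p under 0.05. Of 112 member differences under the alternatives 96 kept their sign, and of Slamf1 1425569_a_at and 1425571_at all did. Under quantile normalization the sign turned for Ly9 (-0.09) and Slamf1 1425570_at (-0.01), and under median centring for Ly9 (-0.08). Over the whole table the median difference was 0.00, and -0.10 after median centring. With single arrays left out Cd48 ranged from -1.02 to 0.59, Flt3 from -0.05 to 1.35, Kit 1452514_a_at from -0.81 to 0.24, Ly9 from -0.45 to 0.63 and Slamf1 1425570_at from -0.22 to 0.54. Without wild-type replicates 2 and 3 the sign turned for Kit 1415900_a_at (-0.33), Kit 1452514_a_at (0.95) and Ly9 (-0.42), a fit in which the lone wild-type array is assumed to vary like the others. The cause was not tested. The number of arrays limits these values.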
